A study of Mus musculus with 6 samples.

Results

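Sphingosine-1-phosphate (S1P) is a signalling lipid, and 10 mouse genes for its 5 receptors and for 5 proteins that make, break down or export it were examined out of 19938 genes measured on arrays. The 10 were chosen by name as S1pr1 to S1pr5, Sphk1, Sphk2, Sgpl1, Sgpp1 and Spns2. Each was read from the probe set annotated with that gene symbol alone, and all 10 had exactly 1 such probe set. The cells were cKit+Sca1+Lin- (KSL) cells, a marrow population rich in haematopoietic stem cells and early progenitors. The double knockout (DKO) group comprised 3 samples, and the wild-type (WT) group 3 samples from littermates. All mice carried Runx1fl/fl and Runx3fl/fl, floxed alleles of the genes of these transcription factors, on a C57BL/6 background. The DKO mice were Mx1-Cre+ and the WT mice Mx1-Cre-. Mx1-Cre is a recombinase transgene driven by an interferon-responsive promoter, and pIpC is the double-stranded RNA that switches it on. The protocol gives 600 µg of pIpC on each of 7 alternate days from 4 weeks of age. It names both genotypes, whereas the sample descriptions call the cells untreated, and the sources used here do not give the interval to harvest. Because the transgene was present in the DKO mice alone, its effects and those of the deletion cannot be told apart. The labels call the samples independent biological replicates. Each WT sample pooled 3 mice, pooling of the DKO samples is not stated, and the design text counts 6 mice in all, so the unit behind n = 3 is unsettled.

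S1P is formed when the sphingosine kinases Sphk1 and Sphk2 phosphorylate sphingosine, which is itself released from ceramide. The lyase Sgpl1 cleaves S1P irreversibly, the phosphatase Sgpp1 returns it to sphingosine, and the transporter Spns2 exports it. S1P is abundant in blood and lymph and scarce inside tissues, and cells follow this gradient through G protein-coupled receptors. S1pr1 is known for guiding lymphocytes, and also haematopoietic progenitors, out of organs into the circulation.

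Signals are on the log2 scale, so a difference of 1 is a doubling, and array medians over all genes were 5.98 to 6.05. Correlations between arrays were 0.993 to 0.995 within DKO, 0.989 to 0.991 within WT and 0.976 to 0.98 between the groups. The targeted gene Runx1 read 9.22, 9.37 and 9.28 on the arrays labelled DKO, against 8.49, 8.53 and 8.38 on those labelled WT, and was higher (0.82 on the log2 scale, limma adjusted p = 0.000427). Runx3 averaged 7.38 on DKO arrays and 7.53 on WT arrays (difference -0.15, limma adjusted p = 0.253). Gene-level signals include probes outside a deleted part, so these readings do not check the deletion, and every direction below is that of the labels. Of the genes sorted on, Kit averaged 10.49 ± 0.20 in DKO and 9.75 ± 0.11 in WT (SD, n = 3 each), and Ly6a, the Sca1 gene, was not analysed here. Cd34, a progenitor marker that was not sorted on, averaged 10.40 ± 0.12 in DKO and 10.37 ± 0.12 in WT.

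The S1P genes changed in both directions, and the pair of large changes lay among the receptors: S1pr1 rose 2.92-fold and S1pr3 fell by 1.20 on the log2 scale. Of the 10 genes 2 rose, S1pr1 and Sgpp1, 1 fell, S1pr3, and 7 did not pass a limma adjusted p of 0.05. Over all 19938 genes 17.4% passed, 9.71% as rises and 7.69% as falls, so 3 of 10 is read as no result about the S1P genes as a group. Rises made up 55.8% of the calls over all genes, and 66.8% after centring each array on its median. DKO and WT values did not overlap for 5 of the 10 genes, beside 35.8% of all genes. All DKO values lay above WT for 2 of the 10 and for 16.2% of all genes, and below WT for 3 of the 10 and for 19.6% of all genes. The median difference was -0.16 for the 10 genes and -0.04 for all genes. In bulk RNA, a change in the share of cells that express a gene cannot be told apart from a change in RNA per cell.

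**Figure D1:**
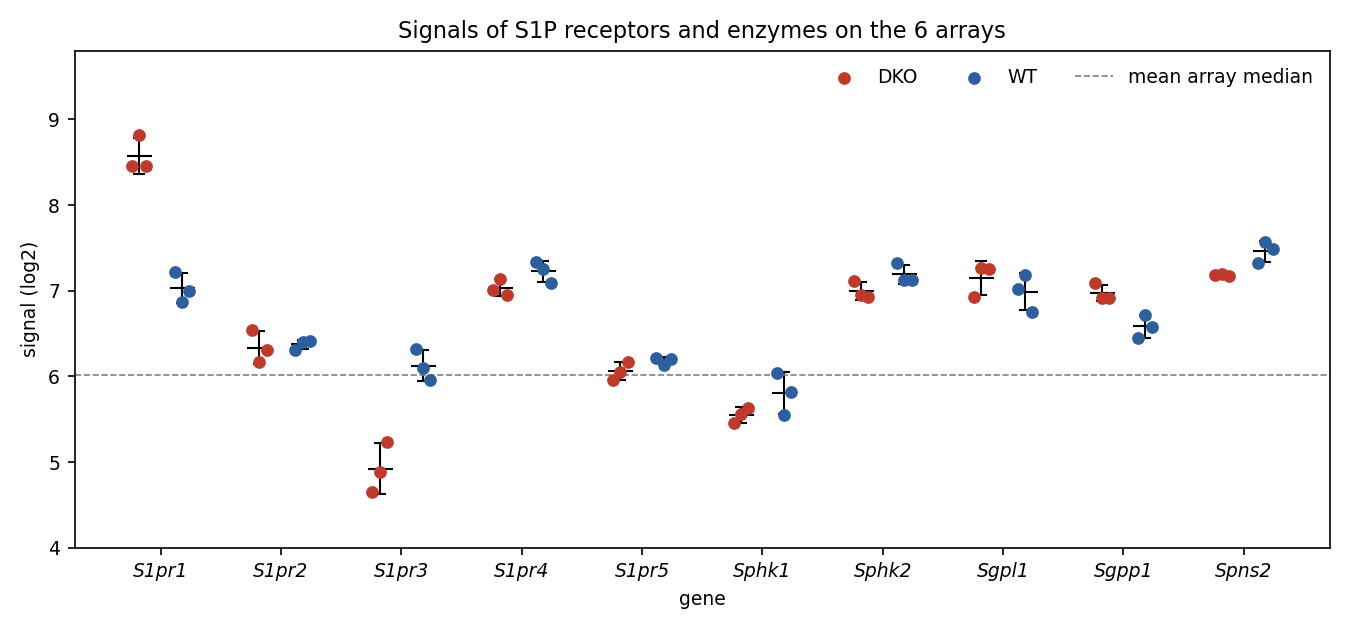
Signal (log2) of each S1P gene on the 6 arrays, with DKO points left of WT points, the group mean as a horizontal mark, the SD as a bar (n = 3 per group) and the mean of the array medians as a dashed line. The S1pr1 points of the groups lie 1.24 apart at their nearest, the S1pr3 points 0.72 apart in the other direction.

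S1pr1 encodes the receptor that couples to inhibitory G proteins and drives migration towards S1P. Its signal was 8.46, 8.82 and 8.46 on the DKO arrays, against 7.22, 6.87 and 6.99 on the WT arrays. All DKO values stood above all WT values, and the gap between the groups exceeded the spread within either. The difference was 1.55 (SE 0.129, 95% confidence interval 1.26 to 1.84, limma adjusted p = 0.000107), a fold change of 2.39 to 3.57 at the interval's ends. With the 19938 genes ordered from the largest rise to the largest fall, it ranked 45. Under 17 alternative settings the difference stayed between 1.43 and 1.64 and passed each time.

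S1pr3, a receptor that also couples to Gq and to G12 family proteins and is known from vascular cells, moved in the opposite direction. Its signal was 4.65, 4.88 and 5.24 on the DKO arrays, against 6.32, 6.10 and 5.96 on the WT arrays. No DKO value reached the lowest WT value. The difference was -1.20 (SE 0.152, interval -1.54 to -0.86, limma adjusted p = 0.00091), so DKO signal was 0.435 of WT signal. DKO signal lay under the lower quartile of the array on 2 arrays, so the size of the fall is uncertain. It was -1.36 to -1.06 over 16 alternatives and passed in each, but it had no value once the dimmest 50% of genes were removed.

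The other receptors did not pass. S1pr2, which inhibits migration in many cells, read 6.54, 6.17 and 6.30 in DKO and 6.31, 6.40 and 6.41 in WT, with a difference of -0.04 (interval -0.28 to 0.20, limma adjusted p = 0.848). Its groups overlapped, with 1 DKO array above and 2 DKO arrays below every WT array, and the sign of its difference turned under 5 settings. S1pr4, found mainly on blood cells, averaged 7.03 ± 0.10 in DKO and 7.23 ± 0.12 in WT (SD, n = 3 each), a difference of -0.19 (interval -0.41 to 0.03). S1pr5, known from natural killer cells and oligodendrocytes, averaged 6.06 ± 0.10 in DKO and 6.18 ± 0.04 in WT, a difference of -0.12 (interval -0.32 to 0.08). The intervals of these 3 receptors leave out a change as large as that of S1pr1 or S1pr3 but not a small one.

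**Figure D2:**
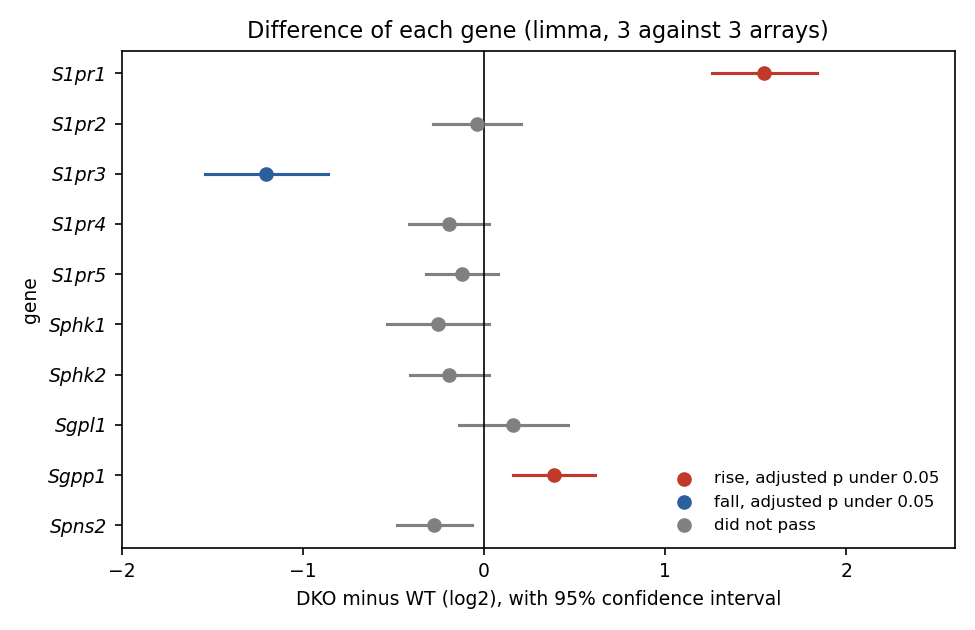
Difference of DKO minus WT (log2) for each S1P gene, as a point with its moderated 95% confidence interval (limma, 3 arrays per group), coloured by whether the adjusted p was under 0.05. S1pr1 and S1pr3 lie at 1.55 and -1.20, and the other genes within -0.27 and 0.39.

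Neither kinase gene passed. Sphk1, the mostly cytosolic and inducible kinase, read 5.46, 5.56 and 5.64 in DKO and 6.04, 5.55 and 5.81 in WT. Only WT replicate 2 fell within the DKO values. The difference was -0.25 (interval -0.53 to 0.03, limma adjusted p = 0.208), and it passed at -0.38 without WT replicate 2 (limma adjusted p = 0.0494, beside 0.0494 to 0.486 over its alternatives). It was -0.13 without WT replicate 1. Sphk2, which also acts in the nucleus and mitochondria, read 7.12, 6.95 and 6.93 in DKO and 7.32, 7.13 and 7.13 in WT. The highest DKO value came within 0.0079 of the lowest WT value, and the difference of -0.19 did not pass (interval -0.41 to 0.03, limma adjusted p = 0.216).

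Among the genes that remove S1P, the phosphatase gene Sgpp1 rose and the lyase gene Sgpl1 did not pass. Sgpp1 read 7.08, 6.92 and 6.91 in DKO, against 6.45, 6.72 and 6.58 in WT, with all DKO values above all WT values. The difference was 0.39 (SE 0.101, interval 0.16 to 0.61, limma adjusted p = 0.0271), a 1.31-fold change. The call was lost without DKO replicate 1, 2 or 3 (limma adjusted p = 0.106, 0.0601 and 0.062) and without WT replicate 1 or 3 (0.0694 and 0.0663). Differences in these fits, which held fewer samples, were 0.32 to 0.42. Those without DKO replicates 2 and 3 were 0.41 and 0.42, not smaller than with all samples. Over 17 alternatives the limma adjusted p ranged from 0.0169 to 0.106. Sgpl1 read 6.93, 7.26 and 7.26 in DKO and 7.02, 7.18 and 6.75 in WT, with overlapping groups and a difference of 0.16 (interval -0.14 to 0.46, limma adjusted p = 0.458).

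The exporter gene Spns2 was lower on all DKO arrays without passing. It read 7.18, 7.20 and 7.18 in DKO, against 7.33, 7.57 and 7.48 in WT. The DKO values were nearly identical, while the WT values spread more widely. The difference was -0.27 (SE 0.0916, interval -0.48 to -0.07, limma adjusted p = 0.0698). It passed with quantile normalization, cyclic loess, removal of the trend with signal and gene span, removal of the dimmest 50% of genes, and without WT replicate 1 (limma adjusted p = 0.042, 0.0429, 0.0239, 0.0438 and 0.0353). Its alternatives spanned 0.0239 to 0.17.

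**Figure D3:**
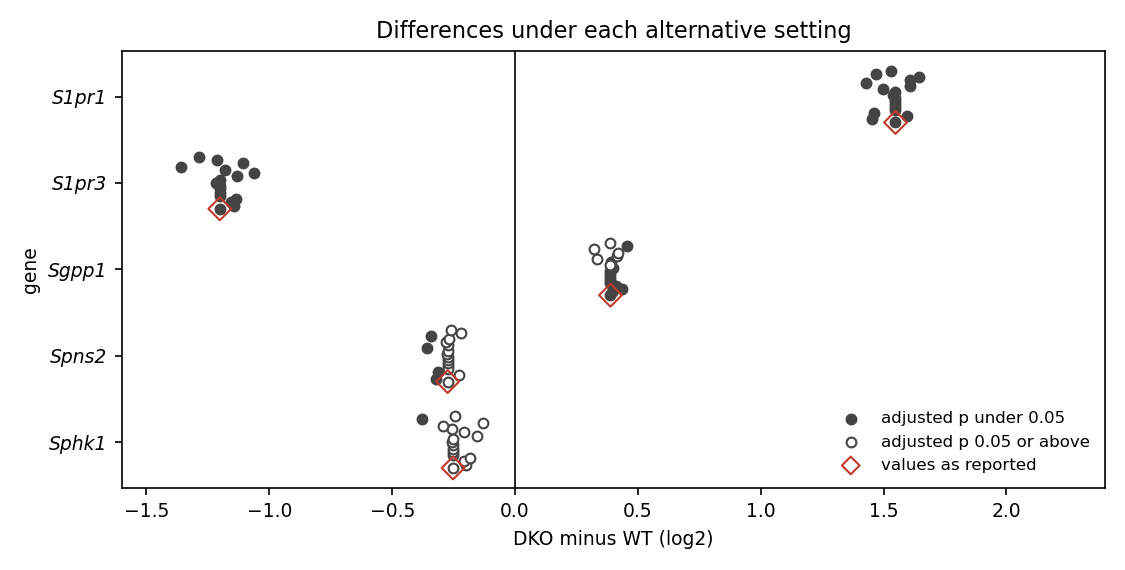
Difference of DKO minus WT (log2) of 5 S1P genes under each alternative setting, as filled circles where the adjusted p was under 0.05 and open circles otherwise, with a diamond around the values as reported. S1pr1 and S1pr3 are filled throughout, whereas Sgpp1, Spns2 and Sphk1 hold both kinds.

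Promoter sequence was read for 9 of the 10 genes from RefSeq (build GRCm38.p6), as the 250 bases before each start site. S1pr1 had no entry. The windows were searched on both strands for TGTGGT, a core of the DNA motif bound by Runx proteins, whose reverse complement is ACCACA. It was present in 3 of the 9 genes, Sphk2, Sgpl1 and Spns2, and in 15.9% of the 27025 genes of the table. None of those 3 genes passed the test of expression on the values as deposited, although Spns2 passed under 5 of 17 alternatives. The windows of S1pr3 and Sgpp1 are shown because these genes changed, and that of Spns2 because it holds the motif, which is printed in capitals 26 bases before the start site. The S1pr3 window is chr13:51408368-51408617 on the + strand, the Sgpp1 window chr12:75735730-75735979 on the - strand and the Spns2 window chr11:72475028-72475277 on the - strand.
S1pr3: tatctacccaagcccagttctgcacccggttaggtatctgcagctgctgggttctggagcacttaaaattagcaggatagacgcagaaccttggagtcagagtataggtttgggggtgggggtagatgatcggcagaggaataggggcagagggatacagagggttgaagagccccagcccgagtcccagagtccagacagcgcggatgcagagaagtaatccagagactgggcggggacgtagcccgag
Sgpp1: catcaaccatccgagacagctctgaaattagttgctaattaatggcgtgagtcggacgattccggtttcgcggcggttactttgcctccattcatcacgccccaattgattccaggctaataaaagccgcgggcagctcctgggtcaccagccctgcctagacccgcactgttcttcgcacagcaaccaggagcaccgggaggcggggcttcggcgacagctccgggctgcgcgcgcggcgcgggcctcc
Spns2: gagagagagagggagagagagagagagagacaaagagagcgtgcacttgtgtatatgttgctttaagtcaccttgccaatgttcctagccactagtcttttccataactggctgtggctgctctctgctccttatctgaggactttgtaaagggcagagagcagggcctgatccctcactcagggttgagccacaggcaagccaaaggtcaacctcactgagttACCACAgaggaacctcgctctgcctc
The S1pr3 and Sgpp1 windows do not hold these letters, which says nothing of Runx binding elsewhere.

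Among other genes that handle S1P, the exporter gene Mfsd2b rose. Of 9 such genes 2 rose, 0 fell and 7 did not pass in limma, with a median difference of 0.11, and 0 were lower at an unadjusted p under 0.05. Beside 17.4% of all genes called, 9.71% as rises, 2 of 9 is read as no result about these genes as a group. The rises were 1 with quantile normalization, with the trend over signal and span removed, and without DKO replicate 2 or 3 or WT replicate 3. Mfsd2b, the S1P exporter of red cells and platelets, read 7.40, 7.00 and 6.99 in DKO, against 6.32, 6.20 and 6.71 in WT, and rose by 0.73 (limma adjusted p = 0.0111, at 0.59 to 0.87 over 17 alternatives). The difference of Spns2 had the opposite sign. Aldh3a2, an aldehyde dehydrogenase that acts after the lyase, rose by 0.41 (limma adjusted p = 0.042). That call was lost with quantile normalization and with the trend over signal and span removed (0.053 and 0.0712). It was also lost without DKO replicate 2 or 3 or WT replicate 2 or 3 (0.134, 0.139, 0.101 and 0.0609, the range of its alternatives being 0.024 to 0.139). Plpp3, a surface phosphatase that clears extracellular S1P, averaged 5.06 ± 0.09 in DKO and 4.88 ± 0.31 in WT (SD, n = 3 each) and did not pass at 0.18 (limma adjusted p = 0.446), although it did at 0.36 without WT replicate 2 (0.0447, beside up to 0.822 in other settings). The transporter Abcc1 averaged 7.31 ± 0.05 in DKO and 7.20 ± 0.05 in WT, a difference of 0.11 that also did not pass (limma adjusted p = 0.434).

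Regulators known from T cells to act on S1pr1 did not share a direction. Foxo1, a transcription factor upstream of Klf2, rose by 0.71, with 6.77, 6.86 and 6.94 in DKO against 6.30, 6.00 and 6.13 in WT (limma adjusted p = 0.00172). Klf2, an activator of S1pr1 in T cells, fell by 0.40, with 6.04, 6.02 and 5.77 in DKO against 6.42, 6.40 and 6.23 in WT (limma adjusted p = 0.0266). Cd69, a membrane protein that takes S1pr1 off the lymphocyte surface, fell by 0.51, with 5.83, 6.00 and 6.33 in DKO against 6.58, 6.71 and 6.41 in WT (limma adjusted p = 0.0291). The groups did not overlap for any of these 3 genes. The Klf2 call was lost without DKO replicate 2 or 3 or WT replicate 1 or 2 (limma adjusted p = 0.0527, 0.101, 0.0646 and 0.0634), and the Cd69 call without DKO replicate 1 or 2 or WT replicate 1 or 2 (0.106, 0.0902, 0.0594 and 0.079). With cyclic loess and with the trend over signal and span removed, Klf2 (0.0524 and 0.0844) and Cd69 (0.0505 and 0.0596) missed the threshold as well, whereas Foxo1 passed under all 17 alternatives. Alternatives spanned 0.0167 to 0.101 for Klf2 and 0.0146 to 0.106 for Cd69. Grk2, the kinase that starts S1pr1 internalisation, was not analysed here.

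Of 21 tested genes of S1P receptor signalling, which include these 3, 4 rose, 5 fell and 12 did not pass, with a median of 0.10, beside 9.71% of all genes called as rises and 7.69% as falls. The rises were 2 with quantile normalization, cyclic loess and the trend over signal and span removed. They were also 2 without DKO replicate 1, 2 or 3 or WT replicate 1 or 3. The falls were 3 without DKO replicate 2 or 3 or WT replicate 1, and 2 without WT replicate 2. They were 6 with quantile normalization, without the dimmest 50% of genes and with the mean of each gene's probe sets. With a trended and robust variance model the falls were 7. Jak2, a kinase of the Stat pathway, rose by 0.66 (limma adjusted p = 0.00422). The kinase gene Akt1 fell by 0.65 (limma adjusted p = 0.00241). Both passed under every one of 17 alternatives. Gnai1, an inhibitory G protein subunit with a dim signal of 4.44 ± 0.13 in DKO and 4.96 ± 0.23 in WT (SD, n = 3 each), fell by 0.52 (limma adjusted p = 0.0206). This was lost without DKO replicate 1 or 3 or WT replicate 1 or 2 (0.0813, 0.0757, 0.0541 and 0.055, beside 0.00712 to 0.0813 over its alternatives).

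Genes that supply ceramide, the source of sphingosine, were read as a list. Of 16 tested genes of sphingolipid and ceramide synthesis 3 rose, 1 fell and 12 did not pass. Beside 9.71% of all genes called as rises and 7.69% as falls, these counts are read as no result about the genes as a group. The ceramide synthase genes Cers2 and Cers5 rose by 0.78 and 0.62 (limma adjusted p = 0.00236 and 0.00209). Sptlc2, a subunit of the enzyme of the first step, rose by 0.48 (0.00398), and was at 0.27, still past the threshold, with the trend over signal and span removed. Degs1, the desaturase that completes ceramide, fell by 0.38 (limma adjusted p = 0.0155), a call lost without DKO replicate 1 or 2 or WT replicate 3 (0.0646, 0.0501 and 0.05, beside 0.00909 to 0.0646 over its alternatives). The list's median was -0.04, the same as that of all genes, and its rises were 5 with median centring or without the dimmest 50% of genes.

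Of 15 tested genes of ceramide breakdown and conversion 4 rose, 1 fell and 10 did not pass, with a median of 0.02, beside 17.4% of all genes called and their median of -0.04. Ugcg, the enzyme that turns ceramide into glucosylceramide, changed most, with 8.44, 8.68 and 8.33 in DKO against 7.19, 7.14 and 7.30 in WT. It rose by 1.27 (SE 0.108, limma adjusted p = 0.000116). The ceramidases Acer3 and Asah2, which free sphingosine, rose by 0.85 and 0.76 (limma adjusted p = 0.00123 and 0.00879). Sgms1 and Sgms2, which both make sphingomyelin, moved apart, with a rise of 0.60 (0.00597) in the bright gene Sgms1 and a fall of 0.43 (0.0384) in the dim gene Sgms2. The fall of Sgms2 was lost without any one sample other than WT replicate 3, with adjusted p-values up to 0.142 without DKO replicate 3. It was lost too with quantile normalization, median centring and cyclic loess, while the other 4 genes passed under all alternatives.

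**Figure D4:**
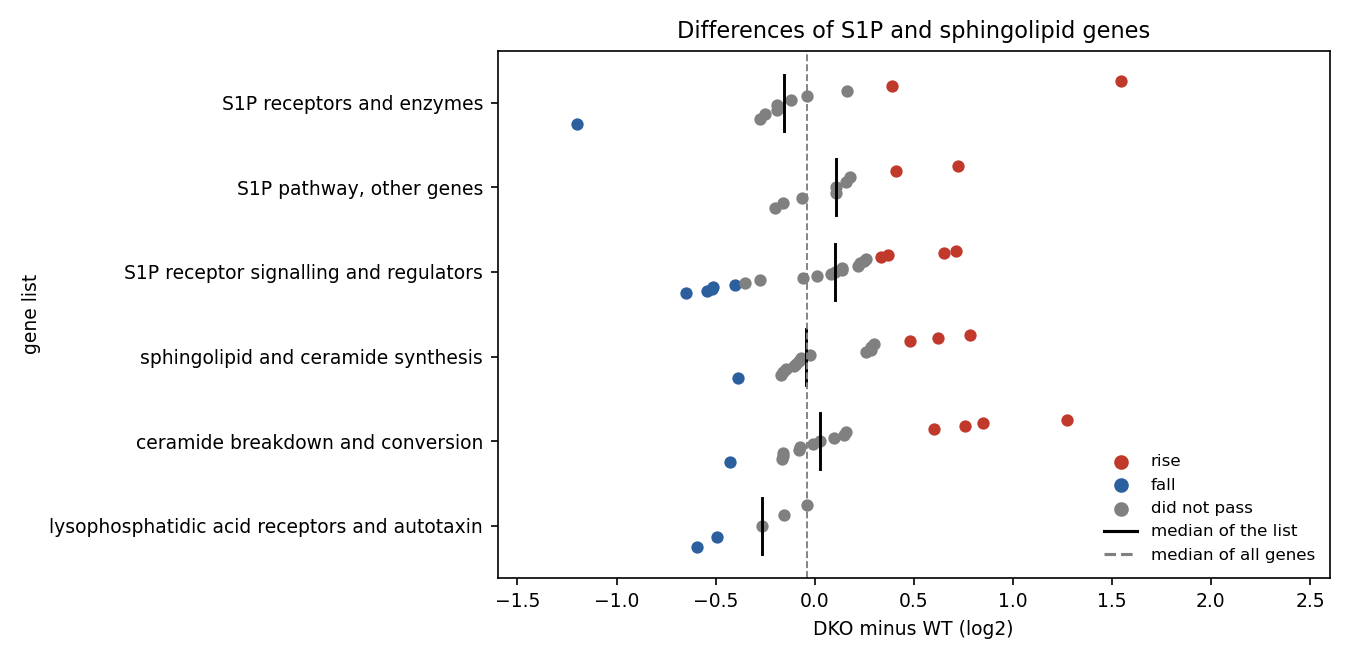
Difference of DKO minus WT (log2) of each tested gene in 6 lists, coloured by whether it rose, fell or did not pass, with the median of each list as a black line and that of all genes as a dashed line. The medians run from -0.26 to 0.11, and Ugcg at 1.27 is the farthest point outside the S1P receptors and enzymes.

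Other cells express S1P receptors too, so their markers were read on the same arrays. Of 10 endothelial markers 0 passed in limma in either direction, 2 were higher and 0 lower in DKO at an unadjusted p under 0.05, and 1 rose without WT replicate 1 or 3. Their summed linear signal was 1099 to 1198 in DKO and 1040 to 1132 in WT, and the defining gene Cdh5 averaged 5.04 ± 0.19 in DKO and 4.96 ± 0.22 in WT (SD, n = 3 each). Emcn, chosen after its value was seen, had the largest difference of that list, at 0.52 (limma adjusted p = 0.0917). Of 10 T and NK cell markers 0 passed in limma, with 1 lower in DKO at an unadjusted p under 0.05 and 1 that fell without WT replicate 1. Of 7 B cell markers 0 passed, and 0 had an unadjusted p under 0.05. Beside 17.4% of all genes called, 0 called in each of these short lists is read as no result about these cells. The summed signals of the groups overlapped, at 255 to 271 in DKO and 256 to 294 in WT for the first list and 320 to 329 in DKO and 295 to 361 in WT for the second. Of the T and NK cell markers 6, and of the B cell markers 3, lay under the lower quartile of the array on all 6 arrays. The part of these cells in the values of S1pr1 was not tested.

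Some markers of mast cells and platelets differed with the groups, and others did not pass. Of 9 mast cell and basophil markers 3 rose and 3 fell, beside 17.4% of all genes called. The mast cell carboxypeptidase Cpa3 rose by 3.43, the IgE receptor chain Ms4a2 by 2.24 and the histamine synthesis gene Hdc by 1.27 (limma adjusted p = 5.6e-07, 0.000683 and 0.00332). The basophil proteases Mcpt8 and Prss34 fell by 1.32 and 0.82, and the dim IgE receptor chain Fcer1a fell by 0.68 (limma adjusted p = 0.00313, 0.0109 and 0.0421). With 1 sample left out at a time the list held 2 to 3 falls. Prss34 and Fcer1a were not followed singly through the alternatives. The dim mast cell genes Cma1, Tpsb2 and Mrgprb2 did not pass, at -0.04, 0.07 and 0.12 (limma adjusted p = 0.849, 0.578 and 0.515). The list's summed linear signal, which weights bright genes such as Cpa3 most, was 2404 to 2710 in DKO and 585 to 695 in WT. Of 6 megakaryocyte and platelet markers 4 rose and 0 fell (0 also at an unadjusted p under 0.05, and 1 without DKO replicate 2), led by Gp5 at 2.80 (limma adjusted p = 1.74e-05), and the summed signal was 1422 to 2113 in DKO and 886 to 991 in WT. Of 7 erythroid markers 0 rose and 2 fell, beside 9.71% and 7.69% of all genes, which is read as no result about these cells. Car1 fell by 2.02 and Klf1 fell by 0.54 (limma adjusted p = 0.00244 and 0.0136), and the Klf1 call was lost without DKO replicate 3 (0.0526, beside 0.0109 to 0.0526 over its alternatives). The summed erythroid signal, which also weights bright genes most, was 657 to 899 in DKO and 1034 to 1492 in WT. Of 12 monocyte, macrophage and neutrophil markers 1 fell, and 3 without WT replicate 1. Beside 7.69% of all genes called as falls, 1 of 12 is read as no result about these cells. Elane, the neutrophil elastase gene, fell by 2.30 (limma adjusted p = 4.67e-05). The list's summed signal was 2598 to 3590 in DKO and 3784 to 3950 in WT. That sum weights the bright gene Mpo most, which did not pass at -0.20 (limma adjusted p = 0.382). The stem cell marker Slamf1 rose by 1.95, the leukocyte gene Ptprc by 0.76 and the sorted receptor gene Kit by 0.73, and the progenitor receptor gene Flt3 fell by 1.32 (limma adjusted p = 6.38e-05, 0.000459, 0.00289 and 0.000434). The part of these shifts in the values of S1pr1, S1pr3, Sgpp1 and Mfsd2b was not tested.

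Genes that followed the 3 changed S1P genes most closely over the 6 arrays were found by the root mean square distance between values centred on each gene's own mean. Compared were genes at or above the median signal, with symbols of predicted or unnamed genes, such as Rik names, left out. Nearest to S1pr1 were Tek, an angiopoietin receptor, Nbea and Nudt7, at distances of 0.0623, 0.0972 and 0.111, with differences of 1.39 to 1.64. Nearest to S1pr3 were Gsta4, Morn2 and Rras2, at 0.105, 0.129 and 0.141, with differences of -1.40, -1.08 and -1.15. Nearest to Sgpp1 were Ints14, Recql and Vbp1, at 0.0345, 0.0382 and 0.049, with differences of 0.38, 0.37 and 0.41. These distances describe likeness on 6 arrays that share the same group difference.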

How the data were processed

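The deposited values were log2 signals, 1 per probe set and array of the Affymetrix Mouse Gene 1.0 ST design. They were made with Affymetrix Expression Console 1.0, per the submitters' processing notes. Per the labels, the sample titles name the RMA gene default, while the series text names MAS 5.0, and the range of 1.25 to 13.7 is that of log2 RMA values. No genome build is named in the sources used here. Of 35556 probe sets 21789 had 1 gene symbol in the platform annotation, 1621 several and 12146 none. For a gene with several probe sets the brightest was used, which left 19938 genes, and no dim gene was removed. DKO minus WT was fitted over all genes with limma 3.58.1 in R 4.3.3 (lmFit, eBayes), two-sided, with Benjamini-Hochberg adjustment over all genes and a threshold of 0.05. The number of arrays limits the precision. On simulated data for this comparison (19938 genes, 200 changed) 99% of changes of 1 and 71% of changes of 0.5 on the log2 scale were recovered.

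The genes and lists were chosen with earlier results of these data known. Of 162 list genes 142 were tested, and the others are not analysed here. Named are the S1P genes, Runx1, Runx3, up to 6 called genes of each pathway list and 4 of each marker list, fixed regulators, and the 3 genes nearest to each called S1P gene. Cd34, Cdh5, Emcn, Prss34, Fcer1a and Lpar6 fall outside this rule and were named after their values were seen, and some called genes of the signalling list, in both directions, are not reported here. Alternatives covered normalization, dim genes, probe sets, variance model, weighted arrays, a replicate block, a trend with signal and gene span, and leaving out each sample. Background correction and array batches could not be varied from these values.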

Additional observations from a re-analysis of the deposited data

How the results depend on the processing

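Of 51 single genes followed through up to 17 alternatives, 35 kept their direction and side of the threshold throughout, S1pr1, S1pr3, S1pr4, S1pr5, Sphk2 and Sgpl1 among them, and 2 changed sign. S1pr2 turned to 0.0011, 0.0074, 0.015 and 0.027 with quantile normalization, median centring, cyclic loess and the trend removed, and spanned -0.14 to 0.048 when 1 sample was left out. Abcc1 turned to -0.0019 with the trend removed. Spns2 passed at -0.32, -0.31, -0.36 and -0.27 with quantile normalization, cyclic loess, the trend removed and the dimmest 50% of genes left out, which gives 2 falls among the S1P genes under the first 3 of these settings. Leaving out 1 sample at a time gave 1 to 2 rises and 1 to 2 falls among the S1P genes, 1250 to 1868 rises and 843 to 1388 falls over all genes, and differences of 0.32 to 0.46 for Sgpp1, -0.34 to -0.22 for Spns2 and -0.38 to -0.13 for Sphk1. The falls over all genes were 843, 876 and 854 without DKO replicates 1, 2 and 3, and the rises 1250 without DKO replicate 3, where fewer samples entered the fit.

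Samples with the same replicate number did not deviate together (correlations of -0.009, -0.095 and -0.042 over all genes), so the numbers were not taken as pairs. With the replicate block Sgpp1 kept its difference of 0.39 but missed the threshold (limma adjusted p = 0.0529), which left 1 rise among the S1P genes, and Aldh3a2 missed it as well (0.0623). Apart from settings whose construction shows it, the cause of these shifts was not tested. Dim signals limit S1pr3 most, since 2 DKO arrays lay under the lower quartile. S1pr3 and Sphk1 had no value without the dimmest 50% of genes.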

Other observations

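Receptors for lysophosphatidic acid, a lipid related to S1P whose receptors include close relatives of the S1P receptors, had lower means in DKO for all 5 tested genes. In limma 0 rose, 2 fell and 3 did not pass, and 0 were higher at an unadjusted p under 0.05, with a median difference of -0.26 beside -0.04 for all genes. Over all genes 7.69% fell, and 8390 of 19938 had a higher mean in DKO, so lower means were the more common kind. Without the dimmest 50% of genes 1 of the receptors was left, and 0 fell in limma. Lpar2 read 5.63, 5.60 and 5.79 in DKO, against 6.43, 6.23 and 6.15 in WT, and fell by 0.60 (limma adjusted p = 0.004). Lpar4 averaged 4.94 ± 0.08 in DKO and 5.43 ± 0.13 in WT (SD, n = 3 each) and fell by 0.49 (limma adjusted p = 0.00771). Both were called under each of the 16 alternatives that held them, although both are dim, lying in the lower 50% by signal, which leaves their sizes uncertain. Lpar6 averaged 7.68 ± 0.04 in DKO and 7.72 ± 0.36 in WT. The autotaxin gene Enpp2 was not analysed here.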
